A study of Homo sapiens with 3 samples.

Results

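The genes described here belong to 4 named families that hold many regulators of pre-mRNA splicing. They include the serine/arginine-rich factors (SRSF), the heterogeneous nuclear ribonucleoproteins (HNRNP) and the CDC-like kinases (CLK). The remaining family is the numbered RNA-binding motif proteins (RBM, with RBMX and its relatives), and not all of its members regulate splicing. A probe set was a member when its annotation gave 1 gene whose symbol begins with SRSF, CLK or RBM followed by a digit, with HNRNP, or with RBMX. The rule found 291 of the 49386 probe sets, which stand for 81 of the 18239 named genes: 12 SRSF, 23 HNRNP, 4 CLK and 42 RBM genes. A further 10 probe sets named a member together with another gene and were left out.

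The arrays came from A498, an epithelial cell line of a human kidney carcinoma, and each of the 3 conditions had 1 array. The control culture received 0.08% DMSO, another culture received E. coli 83972, a urinary strain known from bacteriuria without symptoms, and the last received 60 µM DRB, a nucleoside analogue that blocks transcription elongation by inhibiting the kinase CDK9. All cells were confluent, were kept in serum-free medium with gentamicin and were harvested at 4 h. DMSO is named for the control culture alone, so its effect and that of a treatment cannot be told apart. They also disagree on the bacterial concentration, which is therefore not given.

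With 1 array per condition no test was possible, and every difference below is the log2 level of one array minus that of another. A probe set reads a short stretch near the 3′ end of a transcript, and its level cannot be ranked against that of another probe set. Each gene was represented by its brightest probe set, the one with the highest mean over the 3 arrays. It was kept when at least 1 of the 3 arrays read 4.88 or more, which is the median over all probe sets and arrays. Of the 81 genes 72 were kept, 68 of them with values past that level on all 3 arrays and 4 on the control and E. coli 83972 arrays only. The 9 genes not kept were HNRNPCL1, HNRNPCL2, RBM11, RBM20, RBM44, RBM46, RBMXL2, RBMXL3 and SRSF12, whose brightest probe sets read between 2.88 and 4.66. A probe set is called detected below when it passed the same level. A gene was counted as lower or higher at a difference of 2-fold, that is 1 on the log2 scale. The 2 brightest probe sets of the same gene were compared over 6317 genes. Their disagreement gave a standard deviation between probe sets of 0.18 for differences between the E. coli 83972 and control arrays. It was 0.32 between DRB and control and 0.35 between DRB and E. coli 83972. These values hold no variation between cultures and no effect shared by the 2 probe sets on an array. They can include differences between the transcripts that the 2 probe sets read.

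The deposited values had been scaled so that the 3 arrays have nearly the same distribution, so all differences are relative to the bulk of the transcripts on the array. Spiked-in control RNAs read higher on the treated arrays than on the control array. The median difference of 36 such probe sets was 0.15 for E. coli 83972 and 0.58 for DRB, and centring on them would lower every difference by that amount. Epithelial and renal markers matched the label: the keratin gene KRT18 read 11.63, 11.55 and 11.67 on the control, E. coli 83972 and DRB arrays, and PAX8 read 7.07, 7.23 and 6.10, while EPCAM was under the filter level. Of the marker lists 8 of 9 renal epithelial genes on the array were kept, 2 of 6 leukocyte, 2 of 5 endothelial and 1 of 5 fibroblast genes, and none differed by 2-fold from control on a treated array. The kept ones outside the renal list were CD68 (9.08 on the control and 9.41 on the DRB array), CD3E (4.53 to 5.03), PECAM1 (5.37 to 5.60), VWF (5.50 to 5.59) and COL1A1 (4.98 to 5.10). The defining leukocyte marker PTPRC (3.41 to 3.52) and the endothelial marker CDH5 (3.83 to 4.01) were under the filter level on all 3 arrays. In such bulk samples fewer cells and less RNA per cell cannot be told apart.

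SR proteins bind exonic enhancers through RNA recognition motifs and recruit spliceosomal factors through domains rich in arginine-serine repeats. CLK kinases phosphorylate those repeats in the nucleus and so set where SR proteins reside and how they act. The hnRNP proteins coat nascent transcripts and often oppose SR proteins at silencers, and the RBM proteins are a mixed group defined by the same kind of RNA-binding domain, with members in the spliceosome, in the exon junction complex, in RNA modification and in RNA decay. Many genes of the first 3 families limit their own expression by splicing in exons or keeping introns that send the transcript to decay or hold it in the nucleus.

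The promoters of 5 genes are shown because the results turn on them. RBM24 and CLK4 were higher with E. coli 83972, CLK4 in probe sets other than its brightest, RBM7 and RBM5 were among the lowest with DRB, and RBM6 is the neighbour of RBM5 on chromosome 3 that was not lower with DRB. Each sequence runs from 250 bases before to 50 bases after the start of the gene in RefSeq (build GRCh38.p14), 5′ to 3′ on the strand of the gene, and capitals mark matches to the motifs listed after them, a match on the opposite strand appearing as its reverse complement.

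RBM24 (chr6:17281814-17282113, + strand): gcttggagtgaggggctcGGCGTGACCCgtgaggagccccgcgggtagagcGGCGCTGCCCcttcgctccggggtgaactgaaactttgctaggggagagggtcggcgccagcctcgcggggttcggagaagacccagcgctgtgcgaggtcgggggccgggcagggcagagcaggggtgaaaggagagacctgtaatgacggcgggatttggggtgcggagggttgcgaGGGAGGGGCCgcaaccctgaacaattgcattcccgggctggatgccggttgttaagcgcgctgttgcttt
CLK4 (chr5:178627001-178627300, - strand): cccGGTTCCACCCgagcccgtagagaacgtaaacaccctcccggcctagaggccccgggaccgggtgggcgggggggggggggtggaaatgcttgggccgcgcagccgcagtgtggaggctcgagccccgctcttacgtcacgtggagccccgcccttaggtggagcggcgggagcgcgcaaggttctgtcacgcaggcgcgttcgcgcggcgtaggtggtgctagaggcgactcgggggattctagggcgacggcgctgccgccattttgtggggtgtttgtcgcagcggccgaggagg
RBM7 (chr11:114400416-114400715, + strand): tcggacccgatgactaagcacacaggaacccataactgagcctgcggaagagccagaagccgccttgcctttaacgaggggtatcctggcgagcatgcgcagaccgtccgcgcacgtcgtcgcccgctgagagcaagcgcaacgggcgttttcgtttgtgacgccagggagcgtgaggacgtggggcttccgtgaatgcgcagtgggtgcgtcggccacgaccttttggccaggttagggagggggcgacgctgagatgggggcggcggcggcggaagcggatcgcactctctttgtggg
RBM5 (chr3:50088669-50088968, + strand): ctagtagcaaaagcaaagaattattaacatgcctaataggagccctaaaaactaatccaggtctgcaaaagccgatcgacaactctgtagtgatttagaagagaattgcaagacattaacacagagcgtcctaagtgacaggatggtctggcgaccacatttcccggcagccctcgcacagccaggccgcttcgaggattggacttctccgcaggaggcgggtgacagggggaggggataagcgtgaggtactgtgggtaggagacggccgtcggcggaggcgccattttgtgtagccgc
RBM6 (chr3:49939900-49940199, + strand): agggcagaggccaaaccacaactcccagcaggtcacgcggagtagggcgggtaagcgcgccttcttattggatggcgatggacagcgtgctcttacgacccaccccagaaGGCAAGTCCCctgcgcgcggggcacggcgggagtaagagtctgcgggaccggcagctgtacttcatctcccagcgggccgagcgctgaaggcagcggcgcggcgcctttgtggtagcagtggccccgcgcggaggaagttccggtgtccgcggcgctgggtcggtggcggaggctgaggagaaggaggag

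Matches were sought on both strands for the TATA box TATAAA, the spacing of NF-κB sites GGGNNNNNCC, the cyclic AMP response element TGACGTCA and the ETS site CCGGAAG, none of which overlapped another in these 5 windows. Each match in the 5 promoters was to GGGNNNNNCC, with 3 in RBM24, 1 in CLK4 and 1 in RBM6, and the windows of RBM7 and RBM5 held none of the 4 motifs. A match describes the letters only. The spacing is loose, as it occurred in 73.6% of the promoters of all kept genes and in 49 of the 66 promoters of kept members found in the table (74.2%). TATAAA occurred in 12.1% of those 66 promoters and in 6.10% of promoters of all kept genes, TGACGTCA in 4.55% and 3.14%, and CCGGAAG in 21.2% and 18.5%. Of the 12 members at least 2-fold lower with DRB 9 had a promoter in the table, with 0 TATAAA matches among them. Their median GC content was 63.7%, against 63.0% for the 57 other kept members and 65.0% for all kept genes.

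With DRB, 12 of the 72 kept members (16.7%) were at least 2-fold lower than control and 0 were higher, where 10.2% of the 11653 kept genes were lower and 0.129% were higher. Of these members 10 were RBM genes, 1 was an SRSF gene and 1 was a CLK gene. The median difference was −0.41 for the 36 RBM genes, −0.46 for the 11 SRSF genes, −0.36 for the 4 CLK genes and −0.05 for the 21 HNRNP genes, against 0.05 for all kept genes. With centring on all spike-ins the same medians were −0.99, −1.04, −0.94 and −0.63, and that of all kept genes −0.53. Then 25 of the 72 members and 22.4% of all kept genes were at least 2-fold lower. Differences of this size were not equally frequent at all levels of signal, so the families were also read within ranges of signal. The ranges used the mean over the 3 arrays, with DRB included, so a gene lower with DRB moves toward a lower range. Counts within a range therefore depend in part on the decrease itself, for members and for all genes. Among all kept genes with a mean level of 10 or more 1.46% were lower with DRB, against 16.6% of those from 6 to 8. None of the 12 HNRNP genes in the former range was lower, while 6 of the 16 RBM genes in the latter range were (37.5%). In the range from 8 to 10 the counts were 0 of 6 HNRNP genes and 2 of 14 RBM genes, against 7.69% of all genes. From 6 to 8 0 of 3 HNRNP genes were lower. Below 6, where 7.31% of all genes were lower, 2 of 5 RBM genes were, and no HNRNP gene fell in that range.

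**Figure D1:**
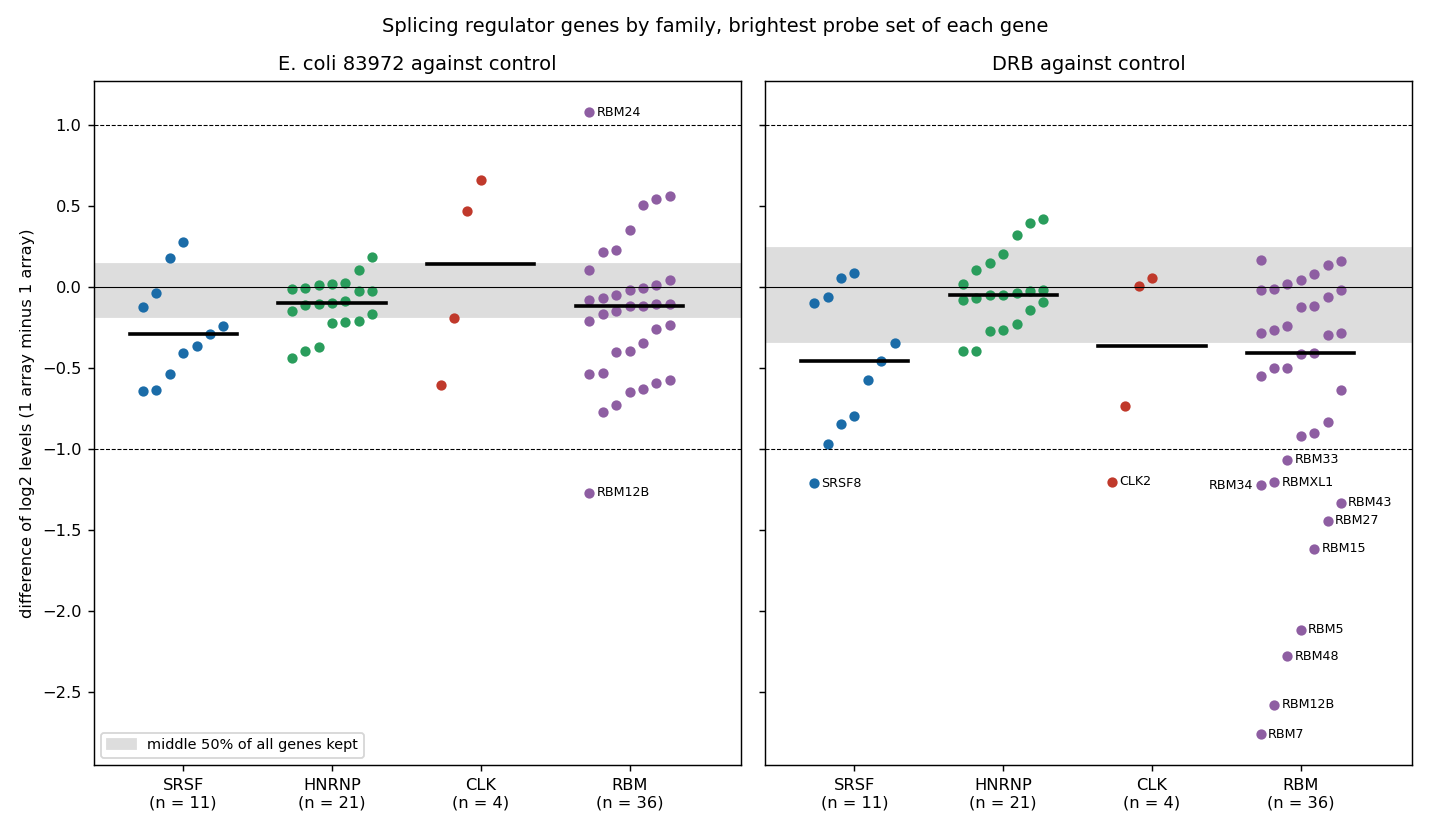
Difference of log2 levels from control for each kept SRSF, HNRNP, CLK and RBM gene (points, brightest probe set), on the left for E. coli 83972 and on the right for DRB. Black bars are family medians, the grey band is the middle 50% of all kept genes and dashed lines mark 2-fold. On the right 10 RBM genes, SRSF8 and CLK2 lie below −1, and the HNRNP genes lie between −0.40 and 0.42.

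RBM7, a subunit of the nuclear exosome targeting complex that sends non-coding nuclear RNA to decay, differed most with DRB. It read 7.34 on the control array, 7.89 with E. coli 83972 and 4.59 with DRB, so it was 6.77-fold lower with DRB (−2.76). Its DRB value lay under the filter level of 4.88, where signal is mostly background and differences are compressed, and it had 1 probe set. RBM12B read 7.37, 6.10 and 4.79 in the same order, a difference of −2.58 with DRB. Its probe sets did not act alike, as another read 6.14, 4.86 and 4.18 and the third stayed at 5.55, 5.50 and 5.42.

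RBM48, a component of the minor spliceosome that removes U12-type introns, read 6.53 on the control array, 6.18 with E. coli 83972 and 4.25 with DRB. All 3 of its detected probe sets were at least 2-fold lower with DRB (mean −1.80 ± 0.67, SD over 3 probe sets). Each of them read under the filter level with DRB (4.01, 4.31 and 4.25), so the size of these decreases is uncertain. RBM5, which modulates the splicing of apoptosis genes such as FAS and is often lost in lung cancer, read 7.72, 7.19 and 5.60. Its 5 detected probe sets lay between −2.11 and −1.65 with DRB (mean −1.85 ± 0.21). RBM5 is thus the member in which the most probe sets gave the same large decrease, a count that depends on how many the array carries. Probe sets of a gene were read on the same arrays, so they are not replicates. Its neighbour RBM6, a close relative on the same strand, read 5.46, 4.92 and 5.44, with a difference of −0.02 from 1 detected probe set near the filter level.

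RBM15, which guides the m6A methyltransferase complex to its target RNAs, read 9.46 on the control array, 9.29 with E. coli 83972 and 7.84 with DRB, 3.07-fold lower with DRB. Another probe set differed by −1.57 with DRB and the remaining one by −0.46. Its relative RBM15B read 7.59, 7.58 and 6.66, a difference of −0.92 that missed the 2-fold mark, and its other probe set gave −0.25. RBM27, which takes part in the nuclear decay of polyadenylated RNA, read 7.90, 8.26 and 6.46 (−1.44), but its other probe set differed by −0.36. Its relative RBM26 differed by −0.29.

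RBM43 read 7.38, 6.61 and 6.04 on the control, E. coli 83972 and DRB arrays (−1.33 with DRB). RBM34 read 8.86, 8.74 and 7.63 (−1.22). Both rested on 1 detected probe set. RBM33, an RNA-binding partner of the m6A demethylase ALKBH5, read 6.84, 7.35 and 5.77 in its brightest probe set (−1.07), while another read 5.84, 5.86 and 6.67 (0.83), so its direction depends on the probe set. RBM43, RBM34 and RBM33 thus have weaker support than RBM5, for which all detected probe sets lay below −1. The same held for RBM48, but its probe sets read under the filter level with DRB, whereas RBM43 and RBM34 read above it.

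Several members are processed gene copies without the introns of their parents. HNRNPA1L2, a copy of HNRNPA1, read 6.61 on the control array, 6.46 with E. coli 83972 and 6.35 with DRB (−0.27). RBMXL1, the retrocopy of RBMX, read 5.99 on the control array, 5.92 with E. coli 83972 and 4.79 with DRB. Its 3 probe sets differed by −1.22 ± 0.10 (SD) with DRB. RBMX itself, the X-linked hnRNP G gene, read 9.76, 9.50 and 9.84 (0.08 with DRB). SRSF8, a retrocopy of SRSF2, read 6.30, 5.65 and 5.09 in its only probe set (−1.21), and SRSF2 read 10.78, 10.14 and 9.98 (−0.80). Copies and parents share sequence, so cross-hybridization can blur such a contrast, and its part in these values was not tested.

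**Figure D2:**
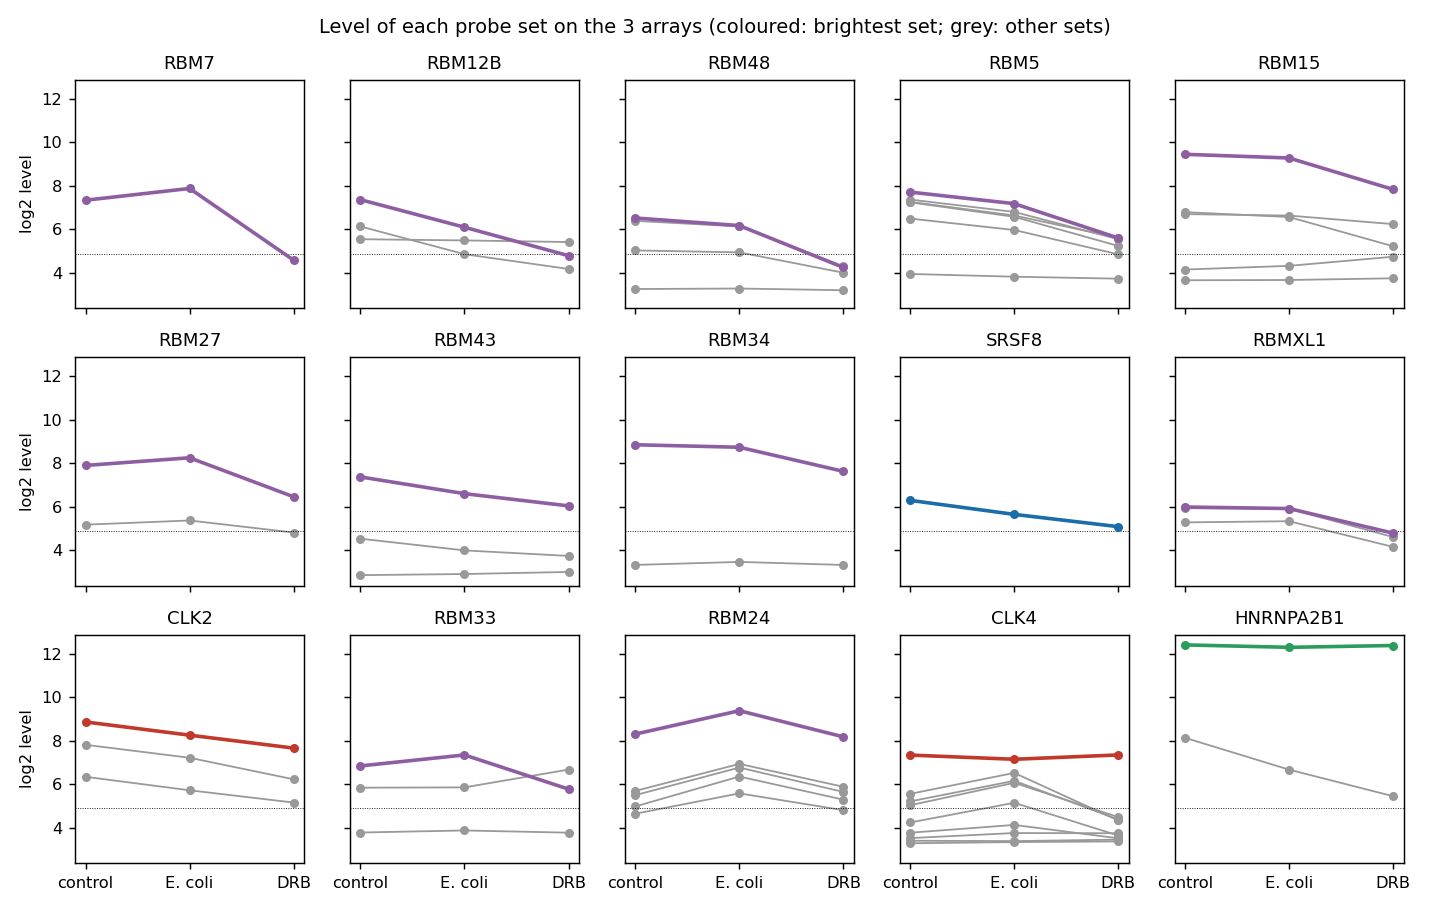
Log2 level (vertical axis) of every probe set of 15 members on the control, E. coli 83972 and DRB arrays. The coloured line is the brightest probe set, grey lines are the others, and the dotted line is the filter level of 4.88; the first 12 panels are the members at least 2-fold lower with DRB. The lines of RBM5 and RBM48 above the dotted line run down together, whereas those of RBM33, CLK4 and HNRNPA2B1 part.

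The remaining RBM genes included well-known splicing factors with differences under 2-fold. RBM39, a U2AF-related coactivator that aryl sulfonamide drugs send to degradation, read 9.98, 9.84 and 9.58 on the control, E. coli 83972 and DRB arrays. Its 7 probe sets differed by −0.52 ± 0.34 with DRB and ranged from −0.90 to 0.08. RBM17, a U2-associated splicing factor, differed by −0.28, RBM22, a core factor of the catalytic spliceosome, by −0.41 and RBM25, which associates with U1, by 0.02. The other detected probe sets of RBM17 gave −0.61 and −0.18. Those of RBM22 lay between −0.32 and 0.32 (mean over all 4 −0.16 ± 0.33). Those of RBM25 lay between −0.60 and 0.01 (mean over all 7 −0.16 ± 0.21). RBM10 differed by 0.04, but its only probe set lay within 0.00845 of one annotated to RBM4 on each array, and the reason was not tested. RBM41 (−0.90) and RBM38, a p53-induced regulator of mRNA stability (−0.84), came close to the 2-fold mark. RBM8A, the exon junction component Y14, read 10.58, 10.56 and 10.33 on the 3 arrays. RBM3, a cold-inducible RNA-binding protein, read 9.93, 9.54 and 9.91. In RBM18 the brightest probe set differed by 0.16 with DRB and another by −0.84. The highest difference of a kept RBM gene with DRB was that of RBM19 (0.17).

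Among the SRSF genes SRSF8 alone passed the 2-fold mark with DRB. SRSF6 read 9.73 on the control array, 9.19 with E. coli 83972 and 8.76 with DRB (−0.97), and its other probe set gave −0.47. SRSF7 read 10.83, 10.70 and 9.98 (−0.85), and 3 of its 4 probe sets lay between −0.85 and −0.76 with the other at −0.27. SRSF2 followed at −0.80. Its other probe sets gave −0.47 and 0.55. SRSF4 differed by −0.58, SRSF5 by −0.46 and SRSF3 by −0.34. SRSF1, the founding SR protein, read 11.04, 10.63 and 10.94 (−0.10), and SRSF9 read 11.39, 11.35 and 11.44 (0.05). SRSF10 differed by −0.07 and SRSF11 by 0.09. Under centring on all spike-ins SRSF2, SRSF4, SRSF5, SRSF6 and SRSF7 also passed 2-fold, and SRSF9 and SRSF11 turned negative.

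The 4 kinase genes did not act alike with DRB. CLK2 read 8.86 on the control array, 8.26 with E. coli 83972 and 7.66 with DRB, and its 3 probe sets differed by −1.33 ± 0.23 with DRB. CLK1 read 7.59, 8.06 and 6.86. Of its 3 probe sets 2 differed by −0.85 and −0.73 and the third by 0.09 with DRB. CLK3 read 7.93, 8.59 and 7.98, with a difference of 0.05. In CLK4 the brightest probe set stayed level at 7.34, 7.15 and 7.35, while 4 others were lower with DRB by −0.55 to −1.22. The dimmest of these 4 passed the filter through the E. coli 83972 array alone, and the level of all 4 on the DRB array was under the filter level. The brightest and the other detected probe sets of CLK4 thus disagreed, and only the brightest was above the filter level on the DRB array. The size of the other decreases is therefore uncertain.

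None of the 21 kept HNRNP genes differed by 2-fold with DRB in its brightest probe set. HNRNPA1 read 12.53, 12.52 and 12.48 on the control, E. coli 83972 and DRB arrays, HNRNPA2B1 read 12.41, 12.30 and 12.38, and HNRNPK, which binds C-rich RNA, read 12.11, 12.09 and 12.05. These lie near the top of the scale, whose highest value was 13.29 on the control array, so differences there may be compressed. The lowest differences were those of HNRNPF (−0.40 with all 7 probe sets below 0, mean −0.37 ± 0.06) and HNRNPA0 (−0.39). At the other end HNRNPL, a regulator of CA-rich elements, read 7.37, 7.14 and 7.79 (0.42), HNRNPUL2 read 7.30, 7.27 and 7.69 (0.39) and HNRNPH3 differed by 0.32 (mean 0.29 ± 0.05 over 3 probe sets). Under centring on all spike-ins all 21 HNRNP differences lay below 0, which means that their places near 0 are places relative to the other transcripts of the array.

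Behind the level values of the hnRNP genes, single probe sets moved by large amounts. HNRNPA2B1 had 2 probe sets. The dimmer read 8.13 on the control array, 6.67 with E. coli 83972 and 5.45 with DRB, differences of −1.46 and −2.69, and the brighter differed by −0.11 and −0.03. In HNRNPDL 1 of 5 probe sets read 5.26, 4.44 and 3.15 (−2.11 with DRB), and the other 4 lay between −0.33 and 0.02. That probe set was detected on the control array alone, so both differences are taken against background and their size is uncertain. In HNRNPA1 1 of 5 read 8.85, 7.94 and 7.55 (−1.30), with the others between −0.17 and 0.04. In SRSF11 1 of 5 read 7.57, 8.02 and 6.19 (−1.37), and the others lay between 0.09 and 0.25. Which transcript each probe set reads is not given in the sources used here.

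Such disagreement was counted over all genes. With DRB 12 of the 55 members with at least 2 detected probe sets had a pair at least 1 apart on the log2 scale (21.8%), against 8.96% of 6317 genes. More probe sets give more room to disagree, so the share was also taken by their number. Among genes with 2 or 3 detected probe sets 8 of 31 members (25.8%) and 7.78% of all genes disagreed, and among those with 4 or more 4 of 24 members (16.7%) and 12.4% of all genes did. With E. coli 83972 it was 4 of 55 members (7.27%) against 1.55% of genes. Counting any detected probe set, 17 of the 72 members (23.6%) had at least 1 that was 2-fold lower with DRB, where 12.1% of all kept genes did. They were the 12 members above with CLK4, HNRNPA1, HNRNPA2B1, HNRNPDL and SRSF11. Among genes with 4 or more detected probe sets it was 5 of 24 members (20.8%) and 13.2% of all genes. HNRNPDL enters this count and those of disagreement through the probe set detected on the control array alone. Of the 12 members 8 had several detected probe sets, and in 4 of these 8 (CLK2, RBM5, RBM48 and RBMXL1) each one was at least 2-fold lower. The detected probe sets of RBM48 and RBMXL1 all read under the filter level on the DRB array.

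**Figure D3:**
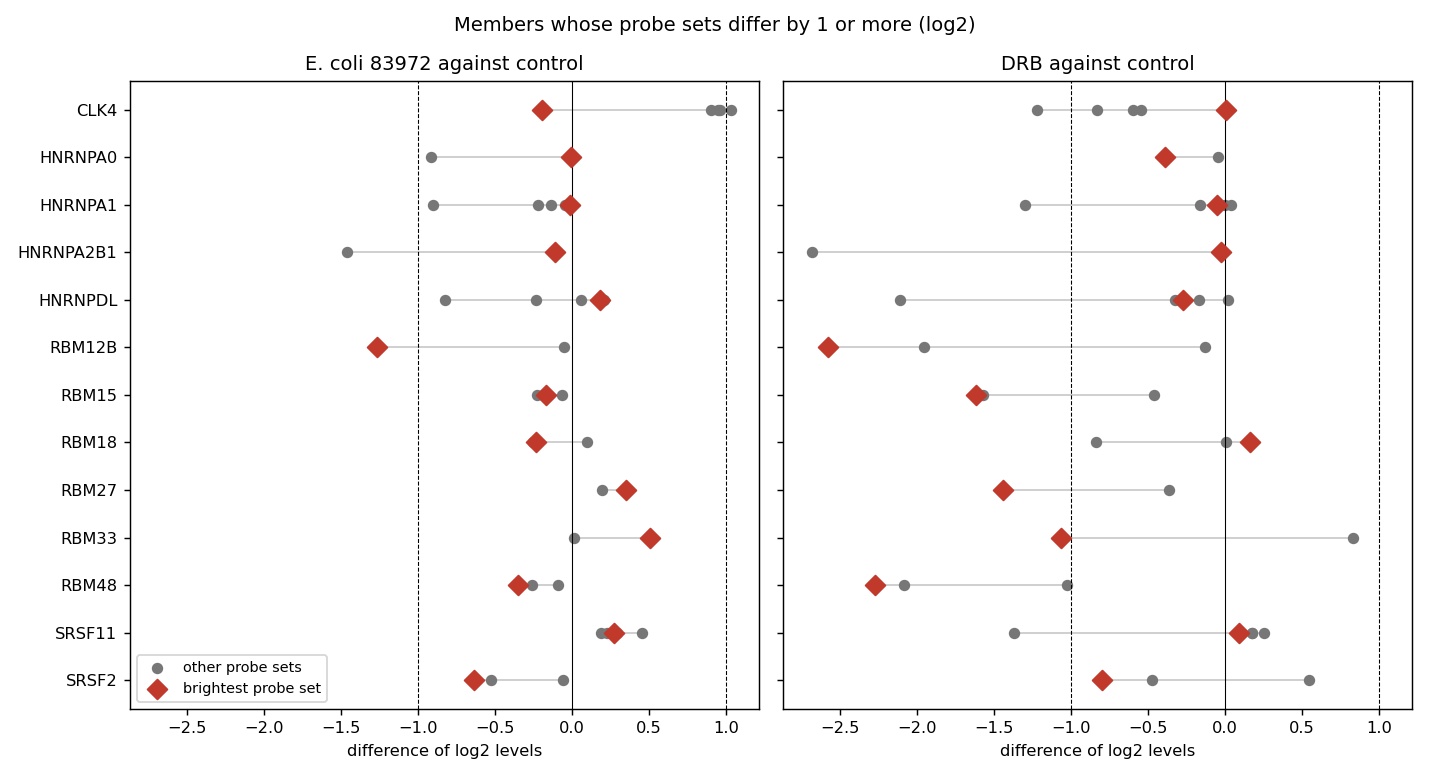
Difference of log2 levels from control for each detected probe set of the 13 members with a pair of probe sets at least 1 apart in a comparison, on the left for E. coli 83972 and on the right for DRB. Diamonds are the brightest probe set of the gene, circles are the others and dashed lines mark 2-fold. For CLK4 4 circles lie near 1 on the left and below −0.5 on the right while the diamond stays near 0.

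With E. coli 83972 the members differed less. Of the 72 kept members 1 (RBM24) was at least 2-fold higher than control, where 1.91% of all kept genes were higher, and 1 (RBM12B) was at least 2-fold lower, where 0.652% were lower. The median difference was −0.12 over the kept members and −0.03 over all kept genes. Of the 72 members 53 lay below 0 (73.6%), as did 54.7% of all kept genes. Core spliceosome genes outside these families, listed below, had a median of −0.14 with 47 of 64 below 0 (73.4%). The shift was thus not particular to the members. The share below 0 was 66.7% of SR-related genes and 52.8% of other RNA-binding regulators. It was 20% of the genes for SR protein kinases, transport and dephosphorylation. By family the medians were −0.29 for SRSF, −0.10 for HNRNP, −0.12 for RBM and 0.14 for CLK, of which that of CLK turned to −0.01 with centring on all spike-ins and was 0.44 with the mean over detected probe sets.

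RBM24, which controls muscle splicing programmes and the stability of several mRNAs, was higher with E. coli 83972 in each of its 5 probe sets. The brightest read 8.31 on the control array, 9.38 with E. coli 83972 and 8.18 with DRB, 2.11-fold higher with the bacterium (1.08). The others differed by 0.94, 1.25, 1.27 and 1.38, against a deviation of 0.18 between probe sets of the same gene. The one at 0.94 was detected through the E. coli 83972 array alone (4.64, 5.58 and 4.81), so it had to be higher there and adds no support, and the remaining 4 lay between 1.08 and 1.38. With centring on all spike-ins its brightest probe set was at 0.92, under the 2-fold mark. With DRB the 5 probe sets lay between −0.13 and 0.31.

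RBM12B was lower with the bacterium in 2 of 3 probe sets, by −1.27 and −1.28, and the third differed by −0.05. The probe set at −1.28 was detected through the control array alone, with 4.86 and 4.18 on the treated arrays, so it adds no support to the brightest one. RBM43 (−0.77), RBM4B (−0.73), RBM12 (−0.65, mean −0.45 ± 0.22 over 4 probe sets), RBM14 of nuclear paraspeckles (−0.63) and RBM45 (−0.59) followed without reaching 2-fold. RBM47, a cofactor of APOBEC1 in epithelia, read 9.49 on the control array, 8.91 with E. coli 83972 and 8.99 with DRB, with similar differences for its 3 detected probe sets (mean −0.69 ± 0.10 with the bacterium). At the other end were RBM25 (0.56, mean 0.40 ± 0.11 over 7 probe sets), RBM7 (0.54), RBM33 (0.51) and RBM27 (0.35). RBM7 and RBM27 thus read above control with the bacterium and below it with DRB, both set against the same control array. The other probe set of RBM33 differed by 0.01 with the bacterium and by 0.83 with DRB.

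The CLK genes were split with E. coli 83972. CLK3 differed by 0.66 and CLK1 by 0.47, with all 3 probe sets of CLK1 between 0.34 and 0.47. In CLK4 3 probe sets detected on the control array read higher by 0.95 to 1.03, and the brightest differed by −0.19. Another at 0.91 was detected through the E. coli 83972 array alone and adds no support. CLK2 was lower in all 3 of its probe sets, with a mean of −0.61 ± 0.01. The probe sets of CLK2 thus lay close together, whereas those of CLK4 were up to 1.22 apart.

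Most SR protein genes read slightly lower with the bacterium. Of 11 kept SRSF genes 9 lay below 0, with SRSF8 at −0.64, SRSF2 at −0.63 and SRSF6 at −0.54 the lowest. SRSF3, an SR protein with a small repeat domain, read 11.79 on the control array, 11.55 with E. coli 83972 and 11.45 with DRB, and its 6 detected probe sets gave −0.40 ± 0.10 with the bacterium. SRSF5 gave −0.38 ± 0.08 over 9 probe sets and SRSF10 gave −0.30 ± 0.13 over 7. SRSF11 (0.27, with all 5 probe sets between 0.19 and 0.46) and SRSF4 (0.18) lay above 0, and with centring on all spike-ins both remained so. Among HNRNP genes HNRNPH2 (−0.44), HNRNPH1 (−0.40) and HNRNPH3 (−0.37) were the lowest by their brightest probe sets. They read 9.77, 10.47 and 9.91 on the control array and 9.33, 10.08 and 9.54 with E. coli 83972, in that order. HNRNPA0 differed by −0.01 in its brightest probe set and by −0.92 in the other. HNRNPDL (0.18) and HNRNPLL (0.10) were the highest, the latter at −0.05 with centring on all spike-ins. The order rests on the choice of probe set. As means over detected probe sets HNRNPDL was at −0.12, HNRNPL at 0.16, HNRNPA2B1 at −0.79, HNRNPA0 at −0.46 and HNRNPM at −0.40, with 2 of the 4 probe sets of HNRNPM at −0.80 and −0.68.

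Setting DRB directly against E. coli 83972 leaves out the shared control array. By this difference 12 of 72 kept members were at least 2-fold lower with DRB than with E. coli 83972 and 0 were higher, where 12.3% of all kept genes were lower and 0.386% higher. RBM7 differed by −3.30, RBM48 by −1.93, RBM27 by −1.79, RBM5 by −1.58, RBM33 by −1.57, RBM15 by −1.45 and RBM12B by −1.31. RBM24 (−1.20), CLK1 (−1.20), RBMXL1 (−1.13), RBM34 (−1.11) and RBM38 (−1.05) completed them. The share of members, 16.7%, is thus a little above that of all genes. HNRNPH3 (0.69), HNRNPL (0.64) and RBM14 (0.62) were the highest with DRB relative to the bacterium.

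Splicing genes outside the 4 families were taken from 4 further lists. Each was read from its brightest probe set alone, and its other probe sets were not compared. Of all kept genes 10.2% were at least 2-fold lower with DRB. With E. coli 83972 1.91% were higher and 0.652% were lower. Of 10 kept genes in a mixed list for SR protein kinases, transport and dephosphorylation 3 were at least 2-fold lower with DRB. They were DYRK3 (−1.39), DYRK2 (−1.22) and PIP5K1A (−1.19), which encodes a lipid kinase. PIP5K1A was 2-fold higher with E. coli 83972 (1.14). The SR protein kinase genes SRPK1 and SRPK2 differed by 0.19 and −0.26 with DRB and by 0.33 and 0.17 with the bacterium. Of 33 SR-related genes 4 were at least 2-fold lower with DRB. They were SCAF8, which binds the tail of RNA polymerase II (−2.39), NSRP1 (−1.69), RSRC2 (−1.61) and RSRP1 (−1.34). RSRP1 also read lower with E. coli 83972 (−1.01). It was detected on the control array alone (5.61, against 4.61 with E. coli 83972 and 4.27 with DRB). It therefore had to be lower on both treated arrays and adds no support. SRRM2, a nuclear speckle scaffold, was the highest of the 33 genes with DRB (0.96).

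Of 36 other RNA-binding regulators 2 were at least 2-fold lower with DRB, PTBP3 (−1.11) and CELF1 (−1.02), and CELF1 was 2-fold higher with the bacterium (1.03). Among 64 core spliceosome genes 2 were lower with DRB, CWC22 (−2.07) and DHX8 (−1.17), which is 3.12%, and none differed by 2-fold with E. coli 83972. The medians with DRB were −0.30, −0.23, −0.04 and 0.03 for the 4 lists in this order, of which the last became negative under spike-in centring. The core spliceosome, the other RNA-binding regulators and the HNRNP genes therefore lay nearest to the median of all kept genes with DRB.

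**Figure D4:**
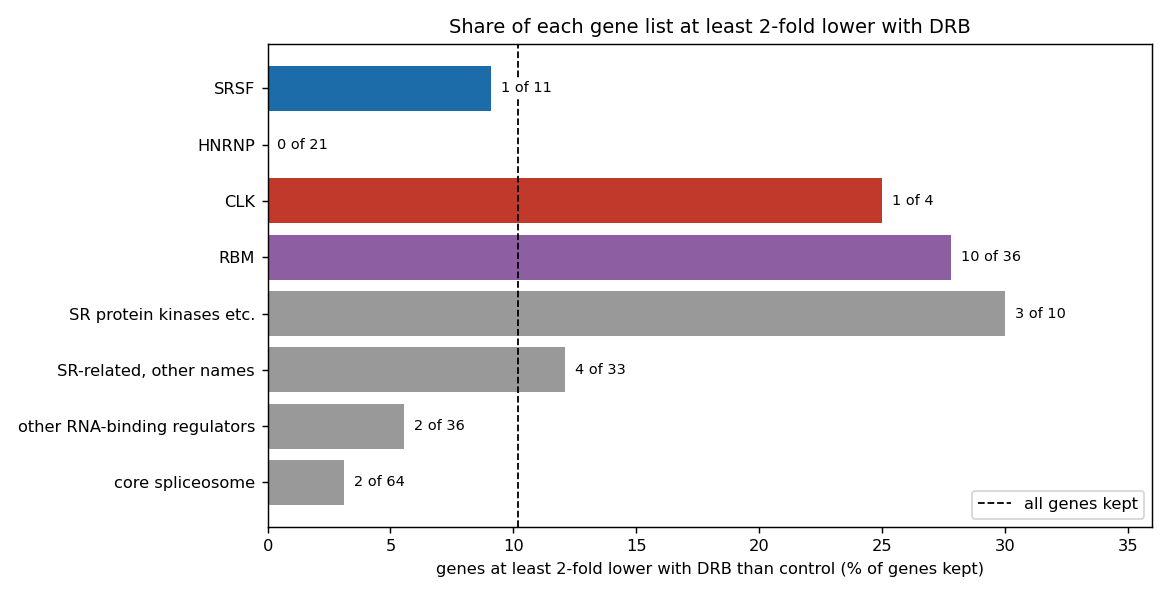
Percent of kept genes at least 2-fold lower with DRB than control in each family and in 4 further lists of splicing genes, with the counts beside the bars. The dashed line is the share of all kept genes, 10.2%. The bars of RBM (10 of 36), the SR protein kinase, transport and dephosphorylation list (3 of 10) and CLK (1 of 4) reach past the line. Those of HNRNP (0 of 21) and the core spliceosome (2 of 64) stay below it. The bar of the SR-related list (4 of 33) also reaches past the line. It counts RSRP1, which was detected on the control array alone, had to be lower with DRB and adds no support.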

How the data were processed

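The values are the probe-set levels the authors deposited, on a log2 scale, from 3' expression arrays labelled with biotin. RMA and Partek produced them, per the submitters' processing notes; neither their versions nor which arrays entered the normalization is given in the sources used here. The method scales arrays to a common distribution, so a change shared by most transcripts is removed. All 3 labels number the experiment as 2.

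Genes were named from the platform annotation, which gave 1 gene for 45259 of the 49386 probe sets, and symbols were updated by Entrez identifier with a RefSeq gene table (GRCh38.p14). No member's symbol changed. Differences, medians and counts at 2-fold were computed across all 11653 kept genes with Python 3.11.15, pandas 2.3.3 and statsmodels 0.14.6, and the calculation was tested on simulated data. There was 1 array per group, so there is no test, and precision is limited by that number.

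The members and lists were chosen with earlier results of these data known. Members at 2-fold, the 3 with the largest differences per family, those whose probe sets disagree, and the outlying genes of each further list were named. Others were named after their values were seen. Alternatives were the mean over probe sets, other filters, spike-in centring, loess (fraction 0.3), probe-set suffixes and a 1.5-fold threshold.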

Additional observations from a re-analysis of the deposited data

How the results depend on the processing

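No paired analysis was possible because each condition had 1 array. The count of members at least 2-fold lower with DRB (12) was 25 with centring on all spike-ins, 29 with centring on poly-A spike-ins, 20 at 1.5-fold and 5 of 15 members with plain-suffix probe sets only. The shares of all genes under these were 22.4%, 24.4%, 18.1% and 11.5%. It was within 1.5 times with the mean over probe sets (11), no filter (12 of 81), a higher filter (12) and loess correction (15). The same held without s and x probe sets (9), a setting chosen after seeing the data. The count at least 2-fold higher with DRB was 0 throughout. Similar counts did not always hold the same members. The mean over probe sets lost RBM27 and RBM33 and gained HNRNPA2B1. Without s and x probe sets RBM12B, RBM15, RBM33 and RBM43 were lost and HNRNPA2B1 was gained. Plain suffixes shared 3 of the 12 and gained HNRNPA2B1 and SRSF11. Against E. coli 83972 the count lower with DRB (12) was 22 with poly-A centring and 4 with plain suffixes, where 21.6% and 14.3% of all genes were lower. With E. coli 83972 against control the member at least 2-fold lower (1) became 0 with the mean over probe sets and 9 at 1.5-fold (3.06% of all genes), and the 1 higher became 0 with either spike-in centring and with plain suffixes, where RBM24 has no probe set, and 2 at 1.5-fold. Members with disagreeing probe sets (13) were 27 at a gap of 1.5-fold, 7 without s and x probe sets and 1 with plain suffixes, which leave fewer probe sets. RBM33 turned to 0.83 with DRB against control and 0.82 against E. coli 83972 without s and x probe sets. Spike-in centring lowered the median of all genes with DRB from 0.05 to −0.53 (all spike-ins) and −0.60 (poly-A), and the share of higher genes among those called with E. coli 83972 from 74.5% to 58.0% and 61.3%. Levels under 4.88 are close to background, which limits RBM7, RBM12B, RBM48, RBMXL1, CLK4, HNRNPDL and, outside the members, RSRP1 on the DRB array.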
